A study of Mus musculus with 4 samples.

Results

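Pou5f1, which encodes the POU-domain transcription factor Oct4, was examined across a tile of nuclear RNA probes in the mouse line 46c, as undifferentiated embryonic stem cells (ESC) and after conversion to neural progenitors (NPC). The members were the non-control probes placed within chromosome 17: 35600001-35700000 (mm9), and 137 of the 48316 probes on the array met this condition. They covered 35634951-35648444 only. Probes were assigned by their centre to the gene body at about 35643000-35648000, which held 67 probes, to the upstream flank with 68 and to the downstream flank with 2. Probes were 60 bases long, adjacent probes did not overlap, and the median spacing of their starts was 60 bases.

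Each group had 2 arrays. ESC grew in GMEM with supplement, and NPC came from the same line by N2B27 differentiation, a serum-free route to neural cells. The 46c line carries a fluorescent reporter of the early neural gene Sox1 and is a single cell line, and no allele or agent differs between the groups by label. RNA was taken from nuclear chromatin preparations made without RNase A, amplified as cDNA and labelled with Cy3 by random priming, so the signal carries no strand. All 4 arrays were on 1 slide with 1 scan. Separate cultures are not stated for either group, so p-values cover the spread among these arrays alone, and that spread may be technical.

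Oct4 maintains pluripotency together with Sox2 and Nanog, and its gene is silenced when embryonic stem cells leave the pluripotent state. In the mouse its transcription is controlled by a promoter without a TATA box and by a proximal and a distal enhancer upstream of the start. Nuclear RNA holds unspliced transcripts, so introns as well as exons can give signal on a tiling array. In the RefSeq gene table the order along the chromosome is H2-Q10, which encodes a class I histocompatibility protein, then the long non-coding RNA Gm32362, Pou5f1, Tcf19 and Cchcr1. That table is on GRCm38, so none of its positions was matched to the mm9 probes and no exon or neighbouring gene was placed.

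RefSeq gives 2 starts for Pou5f1 on the plus strand, the second 2775 bases downstream of the first. The 250 bases before the first start are shown because the gene start is the boundary between the flank and the gene body compared here. Those before the second start are shown beside them, and that start does not mark the boundary. The 2 windows lie at chr17:35505782-35506031 and chr17:35508557-35508806 of GRCm38.p6, and capitals mark matches to the motifs searched.
Pou5f1 start 1: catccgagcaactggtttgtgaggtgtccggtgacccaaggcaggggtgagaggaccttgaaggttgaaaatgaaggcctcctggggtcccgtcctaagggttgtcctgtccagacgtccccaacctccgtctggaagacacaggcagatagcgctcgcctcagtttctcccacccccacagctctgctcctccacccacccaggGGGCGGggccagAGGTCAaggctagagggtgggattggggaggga
Pou5f1 start 2: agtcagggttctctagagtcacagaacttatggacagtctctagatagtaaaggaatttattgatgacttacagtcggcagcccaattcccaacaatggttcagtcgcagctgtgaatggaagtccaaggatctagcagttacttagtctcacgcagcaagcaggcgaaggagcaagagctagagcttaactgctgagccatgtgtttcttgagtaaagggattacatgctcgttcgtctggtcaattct
The motifs were GGGCGG (the GC box bound by Sp1-like factors), AGGTCA (a nuclear receptor half-site), ATGCAAAT (the octamer bound by POU factors) and TATAAA, each on both strands. The first window held 1 GC box, 45 to 40 bases before the start, and 1 half-site, 33 to 28 bases before it, and the matches did not overlap. Of 32851 windows of the same length before RefSeq starts, 32.7% held the GC box, 14.0% the half-site, 1.60% the octamer and 12.4% TATAAA. The second window held none of the 4 motifs, and the octamer and TATAAA were in neither.

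Signal is given as relative signal, the processed intensity divided by a reference intensity of its own array. That reference is the 75th percentile of the 15356 probes that exceeded background clearly on each of the 4 arrays, and it was between 147.2 and 187.8. Each difference is a log2 value, with ESC subtracted from NPC. Over the array, the share of probes above background was 42.5% in ESC 1 and 44.6% in ESC 2, and 54.1% in NPC 1 and 54.3% in NPC 2. No spot of the tile was saturated or an outlier on any array. The only listed genes alone on their chromosome's tile were neural: Npas3 on chromosome 12, whose tile had 24.5% and 25.5% of probes above background in ESC and 75.3% and 67.7% in NPC, and Olig2 on chromosome 16, with 45.5% and 47.7% against 43.8% and 48.6%. The Olig2 tile thus showed no separation of the groups in this share. Of its 7 windows of 5 kb, 1 was lower and 0 higher in NPC at a limma adjusted p under 0.05. Its median change was -0.42, beside -0.35 for all windows of the array. On the Npas3 tile 162 of 168 windows were higher and 1 lower, with a median change of 2.08. Both assignments rest on the chromosome in the gene table.

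The first comparison asked whether nuclear RNA over the Pou5f1 gene body differed between ESC and NPC. The gene body fell in NPC, and its signal was lower on NPC 2 than on NPC 1. Its geometric mean relative signal over 67 probes was 1.38 in ESC 1, 1.34 in ESC 2, 0.490 in NPC 1 and 0.175 in NPC 2. The ESC arrays nearly coincided, and both NPC arrays lay below them without overlap, an order found in 57.2% of all 5 kb windows. The mean log2 level was 0.44 ± 0.029 for ESC (SD, n = 2) and -1.77 ± 1.05 for NPC (SD, n = 2). The change was -2.21 (SE 0.49), a 4.63-fold higher level in ESC, and limma gave it an adjusted p of 0.0222 among 964 windows of 5 kb. In that fit 27.0% of the windows were called lower and 22.0% higher, a call being an adjusted p under 0.05. The chromosome 12 tile alone supplied 168 of the windows, 162 of the 212 called higher and 1 of the 260 called lower. Every share over all windows or all probes in this report includes that tile, and shares without it are not given. The median change of all windows was -0.35, and 2 windows fell further than the Pou5f1 gene body.

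The call was lost without either ESC array, and with each array scaled by the median of its SRN control spots, a setting chosen after seeing the data (-1.61, limma adjusted p = 0.0648). With normexp and quantile normalization the change was -1.33 and was called. Without ESC 1 the change was -2.19 (limma adjusted p = 0.0981) and without ESC 2 it was -2.23 (0.102). Without NPC 1 it was -2.96 and without NPC 2 it was -1.47. In those 2 fits the window's own spread came from the ESC arrays alone (SD 0.029, against 1.05 for NPC). They therefore cannot show whether a call withstands the gap between the NPC arrays. Without an ESC array the window's own spread came from the NPC arrays alone, while the size of the change hardly moved. In bulk RNA, fewer cells expressing the gene and less RNA per cell cannot be told apart.

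Probes with signal showed the same order of the arrays. Of the 67 gene body probes, 66 were well above background in ESC 1 and 66 in ESC 2 (98.5%). In NPC 1 the number was 63 (94.0%), and in NPC 2 it was 47 (70.1%). Signal over the gene body of this ESC marker was thus above background at most probes of both NPC arrays. Only 2 gene body probes were above background in both ESC arrays and in neither NPC array, and 46 were above background on all 4 arrays.

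The NPC arrays differed from each other in the Pou5f1 gene body more than in any other 5 kb window. NPC 2 minus NPC 1 was -1.49 there, and none of the other windows among the 964 had a larger absolute gap between these arrays. Gaps nearly as large lay on chromosome 12, at -1.45 for 54478001-54483000 and -1.42 for 54438001-54443000. Between the ESC arrays the gap in the Pou5f1 gene body was -0.041, and 788 windows had a larger one. Among gene body probes above background on all 4 arrays, NPC 2 minus NPC 1 had a median of -0.93 and quartiles of -2.33 and 0.60 (46 probes). Over the whole array the median was 0.14 with quartiles of -0.31 and 0.52 (15111 probes), and for the upstream flank it was 0.16 with quartiles of -0.37 and 0.55 (24 probes). The gap between the NPC arrays was thus smaller before the gene than within it. The source of this gap was not tested.

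The 2 NPC arrays also had different profiles along the gene. From the start of the gene to its end, the 5 windows of 1 kb in NPC 1 differed from the ESC mean by -1.83, -1.03, -0.95, -1.74 and -1.55. In NPC 2 they were -3.08, -4.17, -3.02, -2.37 and -2.08, with the lowest value in the second window. In each of the 5 windows both NPC arrays were below both ESC arrays, against 47.1% of all 4216 windows of 1 kb.

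Across the gene, 3 of the 5 windows of 1 kb were called lower and none higher, in a fit where 9.16% of windows were called lower and 19.9% higher. The window 35643001-35644000 at the start of the gene had relative signals of 0.986 and 0.838 in ESC against 0.256 and 0.107 in NPC. Its change was -2.46 (SE 0.43, limma adjusted p = 0.00757). The window 35646001-35647000 changed by -2.05 (SE 0.31, limma adjusted p = 0.00489) and the last one, 35647001-35648000, by -1.82 (SE 0.27, limma adjusted p = 0.00453). These windows had the smaller gaps between the NPC arrays. The window 35644001-35645000 had the largest mean difference, -2.60, and was not called (SE 0.92, limma adjusted p = 0.0808), as its relative signals were 1.80 and 1.81 in ESC, 0.887 in NPC 1 and 0.100 in NPC 2. Likewise 35645001-35646000 stood at -1.98 (SE 0.66, limma adjusted p = 0.0693). Which windows of the gene were called depended on the arrays included. Without ESC 1 the 5 changes ran from -2.61 to -1.83 and without ESC 2 from -2.59 to -1.60. Without NPC 1 they ran from -4.17 to -2.08 and without NPC 2 from -1.83 to -0.95.

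Single probes showed where the NPC arrays parted. In the windows 35644001-35645000 and 35645001-35646000, NPC 2 was below NPC 1 at all 15 and all 8 probes. In the last window, 35647001-35648000, it was above NPC 1 at 7 of 13 probes. In the first window it was above at 5 of 15. Over the gene body, 35 probes in NPC 2 were at least 8-fold below the ESC mean and 16 were within 2-fold of it. In NPC 1 these counts were 2 and 24. Most probes of NPC 2 were therefore either far below ESC or close to it, while most probes of NPC 1 lay between these limits.

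The 3 probes with the highest mean ESC signal differed in which NPC array was lower. The probe at 35644737-35644796 had relative signals of 24.1 and 21.6 in ESC, 6.72 in NPC 1 and 0.768 in NPC 2. The ESC mean exceeded NPC 1 there by 3.39-fold and NPC 2 by 29.7-fold. The NPC arrays were both lower than the ESC arrays but far apart, and the change of -3.33 (SE 1.14) was not called (limma adjusted p = 0.189). The probe at 35646919-35646978 read 27.4 and 20.2 in ESC, 7.34 in NPC 1 and 18.5 in NPC 2. Its neighbour at 35646979-35647038 read 22.9 and 21.7, 8.32 and 16.4. At these probes near the end of the gene the order of the NPC arrays was turned: NPC 2 was close to ESC, while NPC 1 was 3.21-fold and 2.68-fold below the ESC mean. Their changes of -1.01 (SE 0.57) and -0.93 (SE 0.45) were not called (limma adjusted p = 0.390 and 0.337).

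A set of 10 gene body probes had an intensity above 1000 on both ESC arrays. They were chosen after their values were seen and by their ESC signal, which favours lower values in NPC, so their folds are a description. In NPC 1 all 10 were lower than the ESC mean by between 2.41-fold and 6.72-fold. In NPC 2 the 3 between 35644582 and 35644856 were lower by 14.8-fold, 29.7-fold and 25.6-fold. The 6 between 35646919 and 35647481 were lower by 1.27-fold to 2.12-fold, and the last, at 35647632-35647691, by 19.6-fold. In NPC 2 the bright probes of the second window were thus much further below ESC than those 6.

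Of the 67 gene body probes, 3 were called lower and 0 higher, in a fit over 47900 probes where 1.58% were called lower and 10.7% higher. Without adjustment, 21 were lower and 0 higher at p under 0.05, against 6.92% lower and 16.9% higher among all probes tested. At 35643532-35643591 the ESC arrays read 3.24 and 1.13 in relative signal and the NPC arrays 0.0149 and 0.0122, where neither array was well above background. The fit on these values gave a limma adjusted p of 0.0108. ESC was 28.3-fold higher when the dim arrays took the lowest signal well above background. The call was lost with normexp and quantile normalization, where the change was smaller (-2.87, limma adjusted p = 0.0597). At 35643352-35643411 it was 3.69 and 4.41 in ESC, 0.0149 in NPC 1 and 0.0779 in NPC 2, and 1 of the 2 NPC arrays was above background. NPC 2, the array above background, was 51.8-fold below the ESC mean, and the fit, which includes the NPC 1 value at the array floor, gave a limma adjusted p of 0.0197. With normexp and quantile normalization its change was -3.53. Both lie in the first 1 kb of the gene body, and the probes on either side of each were above background in NPC 1. At 35646499-35646558 the values were 1.63 and 1.04 in ESC and 0.269 and 0.202 in NPC (change -2.48, SE 0.39, limma adjusted p = 0.0314). That call was lost without ESC 1 (-2.16, limma adjusted p = 0.112).

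The number of called probes rested on the arrays included. It rose without NPC 1 and without NPC 2, and no gene body probe was called higher. The share of all probes called in those fits is not given here, so whether the rise is particular to this gene is not known. Both NPC arrays were below both ESC arrays at 61 of the 67 probes (91.0%), against 39.7% of all probes tested, and at 0 were both above, against 24.9% of all probes tested. Of the 6 exceptions, 4 were in the first 1 kb window, where 11 of 15 probes had this order. Mouse carries 7 pseudogenes of Pou5f1 in the gene table, 5 of them transcribed, on chromosomes 1, 3, 6, 9, 14 and X. Probe sequences were not used here, so which probes could also bind their transcripts was not tested.

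The second comparison set the upstream flank beside the gene body. The flank was lower in NPC by less than the gene body, and its mean differed little between the NPC arrays. Its geometric mean relative signal over 68 probes was 0.113 in ESC 1, 0.103 in ESC 2, 0.0643 in NPC 1 and 0.0641 in NPC 2. The means of the NPC arrays were thus alike before the gene and unlike within it. Single upstream probes did differ. NPC 2 was more than 2-fold above NPC 1 at 8 of them and more than 4-fold below it at 2, against 11 and 31 gene body probes. In ESC 1 and ESC 2, 39 and 37 of the 68 probes were well above background (57.4% and 54.4%), and in NPC 1 and NPC 2, 29 and 33 (42.6% and 48.5%).

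Both 5 kb windows of the upstream flank were called lower in NPC. The window next to the gene, 35638001-35643000 with 47 probes, had relative signals of 0.131 and 0.111 in ESC and 0.0719 and 0.0697 in NPC. It changed by -0.77 (SE 0.16, limma adjusted p = 0.0187). The window 35633001-35638000, with 21 probes, changed by -0.71 (SE 0.14, limma adjusted p = 0.0177). In comparison, 27.0% of all windows were called lower. Neither was called without ESC 1, without ESC 2, when chromosome 12 was left out of the reference, or when control spots named SRN set the scale, where the changes were -0.48 and -0.43. With the medians of those spots they were -0.16 and -0.11 (limma adjusted p = 0.469 and 0.629). With normexp and quantile normalization they were -0.29 and -0.23, and both windows were called.

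A contrast within each array removes a constant log2 shift between arrays, but not differences that vary with intensity or arise at the floor. For 963 windows the mean log2 signal was taken minus that of the other probes of the tile within 50 kb. By this measure the gene body changed by -1.41 (SE 0.38, limma adjusted p = 0.0391). In that fit 10.5% of the windows were called lower and 9.76% higher. With normexp and quantile normalization the contrast was smaller, at -1.02, and was called. The call was lost without ESC 1 (-1.44) and without ESC 2 (-1.37). The change was -0.71 without NPC 2 and -2.11 without NPC 1, fits whose own spread came from the ESC arrays alone. The call was also lost with dim probes left out (-1.22, limma adjusted p = 0.130) and with window medians (-1.10, limma adjusted p = 0.411). The same held without the 10 bright probes (limma adjusted p = 0.0564) and with a 20 kb reference (limma adjusted p = 0.0609). With the 20 kb reference the change stayed at -1.41, since the tile of 13494 bases lies within both references. That loss therefore came from the other windows of the fit. Of the 68 upstream probes in the reference of the gene body, 26 were above background on no array. The upstream windows have the gene body in their own reference, and their contrasts run the other way. At 35638001-35643000 the mean contrast was -2.55 in ESC and -1.45 in NPC, called higher in NPC (limma adjusted p = 0.0463). At 35633001-35638000 it was -2.58 in ESC and -1.66 in NPC (limma adjusted p = 0.0662).

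Within the upstream flank the lower signal was uneven. Of its 8 tested windows of 1 kb, 3 were called lower and 0 higher, against 9.16% and 19.9% of all 1 kb windows. At 35637001-35638000 the change was -1.58 (SE 0.24, limma adjusted p = 0.00482), with 5 of 7 probes above background on each ESC array and 3 on each NPC array. At 35640001-35641000 the limma adjusted p was 0.0156, but 6 of its 9 probes were above background on no array, so no size is given. At 35642001-35643000, directly before the gene, it was -0.98 (SE 0.25, limma adjusted p = 0.0311), with 13 and 11 of 14 probes above background in ESC and 10 and 11 in NPC. The remaining 5 windows had values between -0.57 and -0.25. These sizes are uncertain where many probes were above background on no array, such as 4 of 6 at 35635001-35636000. None of the 3 was called without ESC 1 or without ESC 2, where the first stood at -1.60 and -1.56 and the last at -0.80 and -1.17. The last also lost its call when chromosome 12 was left out of the reference (-0.77, limma adjusted p = 0.0765), with SRN spots (-0.70, limma adjusted p = 0.0889), with their medians (-0.38, limma adjusted p = 0.327) and with window medians (-1.10, limma adjusted p = 0.0668).

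A single upstream probe of 68 was called lower and 0 higher, against 1.58% and 10.7% of all probes. That probe, at 35637509-35637568, read 0.146 and 0.140 in ESC and 0.0151 and 0.0122 in NPC, below background in both NPC arrays. The fit on these values gave a limma adjusted p of 0.0110. ESC was 2.11-fold higher when the dim arrays took the lowest signal well above background. With normexp and quantile normalization its change was -0.55. With the authors' values it was not called (-2.25, limma adjusted p = 0.0748). Its start is at -5491 bases from that of the gene body. At an unadjusted p under 0.05, 15 upstream probes were lower and 1 was higher, against 6.92% and 16.9% of all probes. Both NPC arrays were below both ESC arrays at 45 of the 68 probes (66.2%), against 39.7% of all probes tested. Some of these sat at the floor of all 4 arrays. There the scaled floors alone give this order (0.0183 and 0.0170 in ESC, 0.0149 and 0.0122 in NPC). Of the 68 probes, 26 were above background on no array. A further 6 were above background in both ESC arrays and in neither NPC array, and 24 were on all 4.

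The downstream flank held 2 probes, too few for a window. At 35648325-35648384 the relative signal was 0.616 and 0.921 in ESC, 0.251 in NPC 1 and 0.0304 in NPC 2. At 35648385-35648444 it was 1.04 and 1.91, 0.806 and 0.157. Both followed the order of the arrays seen in the gene, with NPC 2 lowest, and neither was called (limma adjusted p = 0.211 and 0.324).

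The 5 windows elsewhere on the array with the values closest to those of the gene body, by Euclidean distance over the 4 arrays, were all lower in NPC. They were chosen for this likeness, so their changes are a description. The closest was chromosome 5: 29608001-29613000 at a distance of 0.755, with relative signals of 1.23 and 1.14 in ESC and 0.317 and 0.217 in NPC. The others were chromosome 5: 29543001-29548000, chromosome 6: 122663001-122668000, chromosome 15: 61818001-61823000 and chromosome 11: 102783001-102788000, at distances of 1.24 to 1.64. The changes of the 5 ran from -2.17 to -1.17. The NPC arrays lay closer together in them than in the Pou5f1 gene body, as they did in every other 5 kb window.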

How the data were processed

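Nuclear RNA of 2 ESC and 2 NPC samples was hybridised to 1-colour custom Agilent tiling arrays. The deposited spot intensity is the processed signal of Agilent's Feature Extraction (version 11.5.1.1, per the file headers), after background subtraction, with a floor of 2.19 to 3.12 by array and probes placed on mm9. Deposited marks (unit other) of that program give whether a spot was above background, saturated or outlying, per the file headers. The authors' series table was judged to hold log2 values. The submitters' processing notes name limma, and its normalization is not given in the sources used here. It served only as an alternative, since 6777 probes (7 of the tile) had no value and the ESC 1 column followed its own scanner values less closely (Spearman 0.873, against about 1 for the others).

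Control spots (3188) were left out. Of all probes on all arrays 48.9% were above background, so the reference percentile was taken over the probes above background on all arrays. Probe values were averaged in windows of 5 kb or 1 kb with at least 5 probes, on a grid that starts at the gene body start, and fitted by lmFit and eBayes of limma 3.58.1 (R 4.3.3; group as the single term, Benjamini-Hochberg over the whole table). The fit was tested on simulated data. Named were the gene body window and its 1 kb windows, the upstream windows, the gene body probes with the largest called change (up to 5) or the highest ESC mean (3), the called upstream probes (up to 3) and the 5 nearest windows. Called 1 kb windows upstream and the downstream probes were named after their values were seen. The gene, the lists and the tests were chosen with earlier results of these data known. The planned normexp alternative used the median spot signal, since the files give no mean spot signal. Same-numbered arrays did not deviate together (r = 0.044 over 964 windows), so no pairing was assumed. The precision is limited by the number of arrays. Sequences are from RefSeq tables (GRCm38.p6), matched by symbol.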

Additional observations from a re-analysis of the deposited data

How the results depend on the processing

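Among the results of the locus that were rerun, none changed sign. The gene body window, called in the report at -2.21, kept its call in 15 of 18 alternatives, with values from -2.96 to -1.33 (-1.33 with normexp and quantile normalization). It lost it when SRN spots were scaled by their median per array (-1.61, limma adjusted p = 0.0648), and without either ESC array. Leaving out 1 array gave -2.96 to -1.47. The kept calls of this window and of the local contrast include the fits without NPC 1 and without NPC 2. In those fits the spread came from the ESC arrays alone. The local contrast kept its call in 12 of 18: it was -1.22 after removal of dim probes, -1.10 for window medians, -1.41 for a 20 kb reference (limma adjusted p = 0.0609) and -1.45 without the 10 bright probes, none of them called, and -2.11 to -0.71 with 1 array left out. Upstream 5 kb windows called lower were 2 in the report. They were 0 when the percentile left out chromosome 12, 0 with the SRN control spots, 0 with the array medians of those spots, 1 with the grid from position 1, 1 with 10 kb windows, and 0 to 2 with 1 array left out. Called gene body probes, 3 in the report, were 5 when all probes set the percentile, 7 with normexp, 11 with the authors' values, 6 with dim probes left out, and 2 to 42 with 1 array left out. Called 1 kb windows of the gene body, 3 in the report, were 5 when all probes set the percentile, 5 with the authors' values, 5 after removal of dim probes, and 0 to 5 with 1 array left out. The shares of all probes and windows called under these settings are not given here. Whether the shifts in these counts are particular to this gene is therefore not known, and the cause was not tested. Scaling by SRN medians and the set without bright probes were chosen after seeing the data.

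The median change of all windows moved from -0.35 by -0.38 when all probes set the percentile, 0.21 without chromosome 12 and 0.29 with SRN spots. It moved by 0.60 with the medians of those spots, where it was 0.26 and so changed sign, and by 0.21 with normexp. With the replicate block, the gene body window was -2.21 (limma adjusted p = 0.00363) and the local contrast -1.41 (0.0333). The numbers do not pair the arrays, and only the probe from 35646499 (0.0510) and the 1 kb window from 35642001 (0.0653) lost their calls under it. With 1 array left out, the lone array was assumed to vary like the other group.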
